A study of Homo sapiens and Mus musculus with 33 samples.

Results

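The balance between 2 acylations of the same residue, lysine 18 of histone H3, was compared over the HCT116 genome during HDAC inhibition. The compared libraries were the 3 H3K18cr (crotonylation) and the 3 H3K18ac (acetylation) ChIP-seq libraries of MS275-treated HCT116 cells, 6 of the 33 samples of the series, read over 1 list of 40266 peaks. HCT116 is a human colorectal carcinoma line of epithelial origin. All cells of these 6 libraries had received 5 µM MS275 (entinostat), an inhibitor of class I HDACs, for 18 h. The same 2 marks in vehicle-treated (DMSO) cells, 3 libraries each, are set beside them, and 1 input library of MS275-treated cells gives the background. Each mark was precipitated with its own antibody, so a difference between the marks and a difference between the antibodies cannot be told apart.

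Acetylation and crotonylation both neutralise the charge of lysine, and crotonyl is the longer and more rigid group. Both are written by acyltransferases such as p300 and CBP and removed by class I HDACs, while their readers differ: bromodomains bind acetyl-lysine, and YEATS and DPF domains take crotonyl-lysine well. Both marks lie at the start sites of active genes and at enhancers.

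The 6 libraries held between 2236551 (H3K18ac replicate 2) and 3530311 (H3K18cr replicate 1) reads in peaks. After the authors' scaling to the largest library, the H3K18cr libraries had 4070258 ± 234499 scaled reads in peaks and the H3K18ac libraries 3944445 ± 509625 (SD, n = 3 each; exact permutation test, two-sided, p = 0.6, where 3 against 3 cannot go below 0.1). H3K18ac replicate 1 held the most, with 4531232 scaled reads, against 3689506 and 3612598 in the other H3K18ac libraries. In the RNA counts of MS275-treated HCT116 cells, the epithelial markers EPCAM, KRT8, KRT18, KRT19, CDH1 and CDX2 passed 1 CPM in all 4 libraries. VIL1 and CDH17 of the same list did not. The summed CPM was 4747 to 5673 for the 8 epithelial markers and at most 17.4 for the blood, stroma and endothelium lists.

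The third H3K18cr library stood apart from the first and second. Over the 3923 tall peaks (200 or more scaled reads on average) the SD of the log2 ratio was 0.136 between H3K18cr replicates 1 and 2, but 0.253 and 0.256 between these and replicate 3. The distance of H3K18cr replicate 3 from the H3K18ac libraries was smaller, 0.181 to 0.192, within the range of 0.160 to 0.198 that the H3K18ac libraries showed among themselves. H3K18cr replicates 1 and 2 lay at 0.217 to 0.246 from the H3K18ac libraries. By read counts over 40061 peaks, H3K18cr replicates 1 and 2 differed by little more than sampling, with a mean chi-square per peak of 1.03 (1 where only counting differs; chi-square p = 1.01e-05), against 1.92 and 1.81 for the pairs with replicate 3. The same split was present with DMSO, where the SD was 0.123 between H3K18cr replicates 1 and 2 and 0.307 and 0.287 between these and replicate 3. What set replicate 3 apart was not tested. Each gene list whose median changed side relative to all promoters between H3K18cr replicates 1 and 2 and replicate 3 is therefore given with both values.

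**Figure D1:**
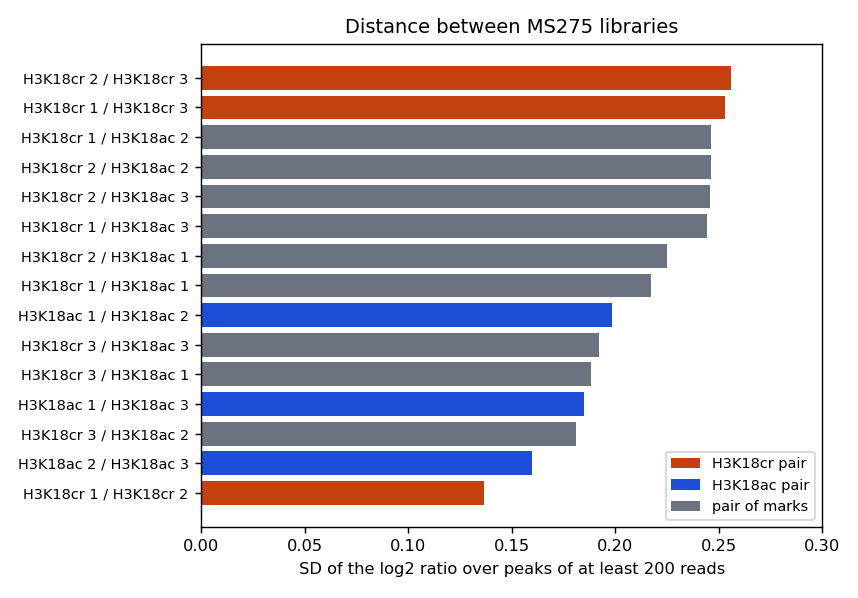
Bars give the SD of the log2 ratio of scaled reads for each pair of the 6 MS275 libraries over the 3923 tall peaks. The shortest bar (0.136) joins H3K18cr replicates 1 and 2, the longest (0.256) joins H3K18cr replicates 2 and 3, and H3K18cr replicate 3 lies as near to the H3K18ac libraries as these lie to each other.

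Peak by peak, the reads of crotonylation and acetylation differed little in MS275-treated cells. Of the 40071 peaks averaging 10 or more scaled reads, 0 passed an adjusted p of 0.05 in either direction (limma, Benjamini-Hochberg; 0% called), and 1879 had an unadjusted p under 0.05. The smallest adjusted p was 0.116. The log2 difference (H3K18cr minus H3K18ac) had a median of 0.045 with quartiles of -0.11 and 0.19, and it lay within 0.5 of 0 in 94.9% of peaks. The difference exceeded 1 in 35 peaks and fell below -1 in 34. The 95% interval of the difference lay inside a 2-fold change in 36340 peaks (90.7%), and in 22851 of the 22965 peaks averaging 50 or more reads. In the 3923 tall peaks, 3357 intervals (85.6%) excluded even a 1.5-fold change in reads. There the fitted standard error had a median of 0.18, against 0.080 from counting alone. Input was not subtracted from these values, and the median log2 ratio of ChIP to MS275 input was 0.99 over all peaks tested. Background reads count in both marks, so these intervals do not bound the difference of the marks above background.

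The call count depended on the scaling and on single libraries. With TMM scaling 1 peak passed, and with edgeR on the recovered reads with TMM 5 passed. Without H3K18ac replicate 1, whose total stood apart, 29 peaks passed, all with H3K18cr higher. With TMM and without H3K18cr replicate 3, 268 peaks passed with H3K18cr higher (0.669% of those tested) and 490 with H3K18ac higher (1.22%), a setting chosen after the data were seen. Its p-values rest on 2 H3K18cr libraries that differ by little more than counting. With these 2 libraries averaged into 1, 0 peaks passed by limma with either scaling, and 898 and, with TMM, 1860 had an unadjusted p under 0.05.

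All 3 H3K18cr libraries lay above all 3 H3K18ac libraries at 2149 peaks (5.36% of those tested), and below them at 1255 (3.13%). The peaks named next were taken from these by the smallest p in each direction among peaks averaging 50 or more reads. Their order and MS275 values describe the ranking and are no test, and 0 of the 24 passed the adjusted threshold.

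**Figure D2:**
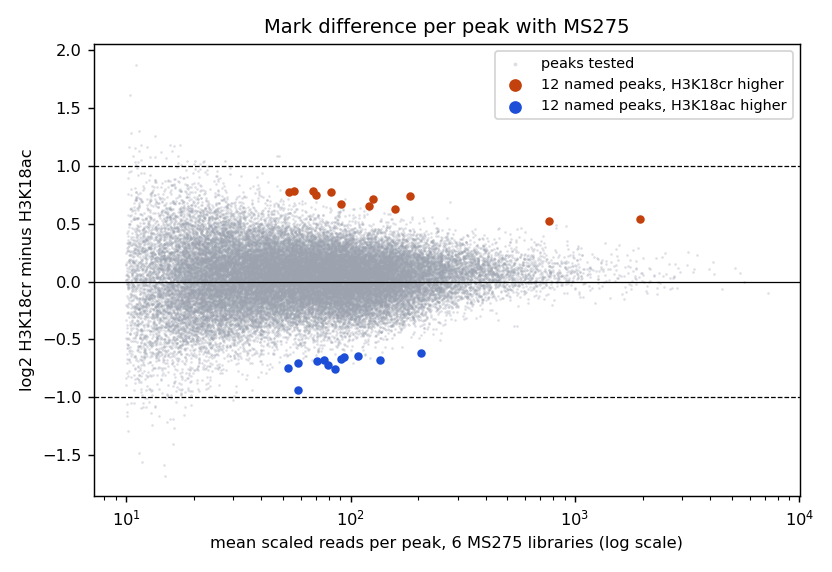
Each grey point is 1 of 40071 peaks, with the mean scaled reads over the 6 MS275 libraries on a log axis and the log2 difference between H3K18cr and H3K18ac. The spread narrows with height, nearly all tall peaks lie between the dashed lines of a 2-fold difference, and the 12 named peaks of each direction (coloured) have absolute differences of 0.53 to 0.94.

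For the promoters on which the comparison turns, RefSeq gives the bases from 250 before to 50 after the gene start (GRCh38.p14). Promoters from both ends of the ranking are shown, with and without a marked motif: GOSR1, TMEM258, OCIAD1, SFSWAP and HBS1L had H3K18ac higher, and CYP4F11, WNT16 and NTSR1 had H3K18cr higher. Capitals mark matches, on either strand, to the ETS motif CCGGAAG, the YY1 motif (the capitals of the GOSR1 promoter), the cAMP response element (CRE) TGACGTCA, the AP-1 motif TGANTCA and the TATA box TATAAA. Of the 10 named H3K18ac promoters with a RefSeq window in their peak 6 held such a match and 4 (HBS1L, RBBP5, FTSJ1 and PRPF31) did not, and ARL14EP among the 6 held AP-1. Of the 5 named H3K18cr promoters 1 did, CYP4F11 with ETS. Of all RefSeq promoter windows in promoter peaks, 29.3% held at least 1 of these 5 motifs. The promoters were picked by these data and the motifs with earlier results known, so these counts are no test.
GOSR1, chr17:30477158-30477457, plus strand: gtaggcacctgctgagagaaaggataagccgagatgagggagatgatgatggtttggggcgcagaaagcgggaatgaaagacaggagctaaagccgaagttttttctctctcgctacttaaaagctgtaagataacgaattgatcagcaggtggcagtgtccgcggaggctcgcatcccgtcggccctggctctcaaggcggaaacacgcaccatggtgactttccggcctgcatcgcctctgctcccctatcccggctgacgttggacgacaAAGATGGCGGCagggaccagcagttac
TMEM258, chr11:61792550-61792849, minus strand: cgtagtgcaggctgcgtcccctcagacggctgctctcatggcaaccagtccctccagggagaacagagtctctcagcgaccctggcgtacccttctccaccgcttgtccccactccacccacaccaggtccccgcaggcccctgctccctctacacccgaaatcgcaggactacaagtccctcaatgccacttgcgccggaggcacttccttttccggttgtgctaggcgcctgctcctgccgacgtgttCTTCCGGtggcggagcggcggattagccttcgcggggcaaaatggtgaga
OCIAD1, chr4:48830838-48831137, plus strand: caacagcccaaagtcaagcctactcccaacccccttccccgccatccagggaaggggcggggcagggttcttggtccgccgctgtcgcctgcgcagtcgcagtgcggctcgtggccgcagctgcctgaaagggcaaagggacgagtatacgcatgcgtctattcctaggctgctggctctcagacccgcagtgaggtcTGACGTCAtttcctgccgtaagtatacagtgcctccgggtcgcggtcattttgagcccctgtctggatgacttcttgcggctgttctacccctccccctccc
SFSWAP, chr12:131710840-131711139, plus strand: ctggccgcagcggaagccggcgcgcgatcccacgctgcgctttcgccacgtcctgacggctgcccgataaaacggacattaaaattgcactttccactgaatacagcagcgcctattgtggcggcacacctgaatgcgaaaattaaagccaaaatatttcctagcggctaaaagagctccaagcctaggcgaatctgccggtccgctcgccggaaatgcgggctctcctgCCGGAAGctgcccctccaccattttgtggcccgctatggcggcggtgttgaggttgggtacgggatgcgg
HBS1L, chr6:135054773-135055072, minus strand: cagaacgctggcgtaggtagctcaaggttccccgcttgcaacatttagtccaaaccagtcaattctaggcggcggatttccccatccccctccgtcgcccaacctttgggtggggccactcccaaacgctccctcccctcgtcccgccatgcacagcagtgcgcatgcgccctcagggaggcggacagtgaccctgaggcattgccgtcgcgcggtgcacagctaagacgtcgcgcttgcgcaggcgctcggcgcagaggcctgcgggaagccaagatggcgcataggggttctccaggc
CYP4F11, chr19:15934818-15935117, minus strand: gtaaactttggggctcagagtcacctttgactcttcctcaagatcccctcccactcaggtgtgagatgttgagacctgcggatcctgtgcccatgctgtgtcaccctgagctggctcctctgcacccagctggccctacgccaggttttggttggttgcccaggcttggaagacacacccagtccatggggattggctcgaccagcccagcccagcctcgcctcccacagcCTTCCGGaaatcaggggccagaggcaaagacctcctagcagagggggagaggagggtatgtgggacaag
WNT16, chr7:121328750-121329049, plus strand: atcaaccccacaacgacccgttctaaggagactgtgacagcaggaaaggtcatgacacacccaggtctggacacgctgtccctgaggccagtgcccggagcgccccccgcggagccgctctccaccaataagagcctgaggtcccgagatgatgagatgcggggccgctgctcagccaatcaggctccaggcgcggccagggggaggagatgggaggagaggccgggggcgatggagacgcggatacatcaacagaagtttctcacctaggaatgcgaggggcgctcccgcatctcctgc
NTSR1, chr20:62708586-62708885, plus strand: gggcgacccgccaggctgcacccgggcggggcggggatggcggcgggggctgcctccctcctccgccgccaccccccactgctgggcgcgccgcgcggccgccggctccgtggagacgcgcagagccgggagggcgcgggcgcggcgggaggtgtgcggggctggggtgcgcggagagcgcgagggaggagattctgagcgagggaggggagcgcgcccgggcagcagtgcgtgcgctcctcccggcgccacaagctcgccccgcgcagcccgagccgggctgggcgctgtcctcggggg

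Among the peaks with more crotonylation, the smallest p was that of a peak inside SEMA4B, a transmembrane semaphorin (chr15:90209551-90214350). It held 233.9, 249.3 and 204.8 scaled reads in H3K18cr replicates 1 to 3 and 180.5, 107.2 and 132.0 in H3K18ac. The marks did not overlap, and the log2 difference was 0.74 ± 0.19 (SE; limma adjusted p = 0.841). The MS275 input library held 106 scaled reads in this peak, beside the lowest H3K18ac value. PLEC, which encodes the cytolinker plectin, had the tallest of these peaks (chr8:143931601-143959200). Its reads were 2326, 2188 and 2350 for H3K18cr and 2002, 1476 and 1321 for H3K18ac, with 609 in the MS275 input, a difference of 0.54 ± 0.16. This was the peak that passed with TMM (adjusted p = 0.0222), with cyclic loess (0.0466), with DESeq2 (0.0251) and with edgeR and TMM (0.0158). NTSR1, the neurotensin receptor, had 935, 918 and 860.0 reads for H3K18cr against 719, 581 and 591 for H3K18ac across a peak of 14550 bases over its promoter. WNT16, a Wnt ligand, had 191, 197 and 184 against 155, 120 and 101. The marks did not overlap in any of these peaks, and the H3K18ac replicate 1 value was the highest of its mark in each.

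The remaining peaks of this end were the promoters of CYP4F11, NGEF, ZBTB7C, DENND2B, JADE3 and PGPEP1, a peak inside SYNJ2, and an intergenic peak for which the deposited annotation names LRP5. CYP4F11 is a fatty acid hydroxylase and NGEF a guanine nucleotide exchange factor. CYP4F11 held 95.6, 109 and 104 reads for H3K18cr against 74.0, 59.4 and 49.3 for H3K18ac. At PGPEP1 the MS275 input held 58.0 scaled reads, beside 97.4, 57.7 and 58.7 for H3K18ac. ZBTB7C, with 77.6, 97.7 and 78.6 against 72.7, 31.3 and 51.3, was the only one of the 12 that did not lean to H3K18cr with DMSO (log2 difference -0.048).

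All 12 peaks at the acetylated end were promoters. PABIR1, whose start lies within PIP5K1B (chr9:68779201-68781000), had 31.5, 41.1 and 47.7 reads for H3K18cr and 70.1, 90.7 and 68.1 for H3K18ac. Its difference of -0.94 ± 0.22 was the largest of the 24 (SE; limma adjusted p = 0.414). GOSR1, a Golgi SNARE protein, had 73.1, 53.8 and 63.1 against 117, 104 and 98.5. The peak shared by TMEM258 and FEN1, the flap endonuclease of replication, had 136, 152 and 199 against 328, 211 and 214 (-0.62 ± 0.19). In each of these the lowest H3K18ac library was above the highest H3K18cr library. OCIAD1, a mitochondrial and endosomal protein, had 74.2, 72.2 and 109 against 149, 125 and 118. SFSWAP, a splicing regulator, had 67.5, 59.5 and 92.6 against 138, 97.3 and 108. In these peaks H3K18cr replicate 3 was the H3K18cr library nearest to the H3K18ac values. The others were ANKRD54 with EIF3L, PGBD2, ARL14EP, HBS1L, RBBP5, FTSJ1, and PRPF31 with TFPT. The MS275 input held 56.6 scaled reads at RBBP5, where H3K18cr held 51.7, 46.7 and 80.0. It held 38.2 at PRPF31, where H3K18cr held 41.6, 46.7 and 43.5, and 62.3 at TMEM258. PRPF31 and SFSWAP act in splicing, HBS1L in ribosome rescue, RBBP5 in the H3K4 methyltransferase complexes and FTSJ1 in tRNA methylation.

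**Figure D3:**
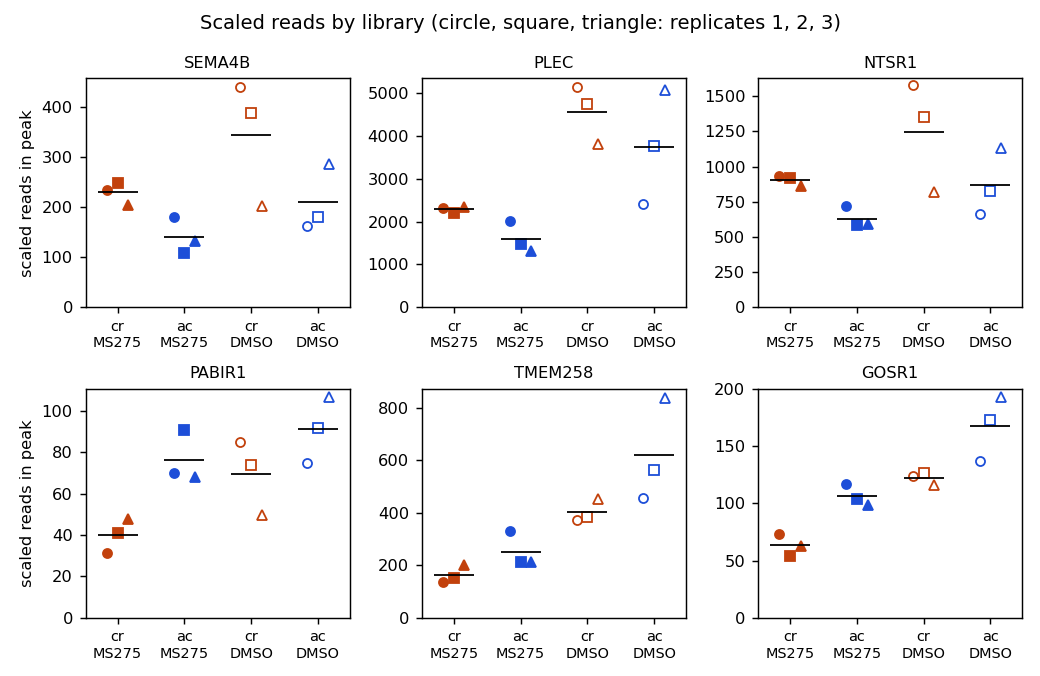
Scaled reads of each library at 3 peaks with more H3K18cr (top) and 3 with more H3K18ac (bottom) under MS275, with filled symbols for MS275, open symbols for DMSO and a line at each mean. With MS275 the 3 libraries of one mark lie wholly above the other, while with DMSO replicate 3 of H3K18cr falls to the H3K18ac values at SEMA4B, PLEC and NTSR1.

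The same lean was present in vehicle-treated cells, in libraries the choice of peaks did not use. Of the 12 peaks with more H3K18cr, 11 had the same sign with DMSO (median log2 difference 0.37, with 54.8% of all peaks of 50 or more reads on that side), and of the 12 with more H3K18ac all 12 did (median -0.41, with 45.2% of all peaks on that side). The marks did not overlap with DMSO in 1 and 5 of them, against 3.57% and 4.61% of all peaks of 50 or more reads in these directions. Across all peaks where the MS275 marks did not overlap and the peak was tall, 187 of 202 with H3K18cr higher and 20 of 22 with H3K18ac higher kept their sign with DMSO, against 62.5% and 37.5% of all such tall peaks. The term for a different mark contrast in the 2 treatments passed at 0 of 40266 peaks (limma; 0% called, 739 at an unadjusted p under 0.05).

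Across peaks, the mark difference with MS275 followed that with DMSO the more closely the taller the peak. Pearson's r was 0.11 in the 17106 peaks of 10 to 50 reads, 0.44 in 10858 peaks of 50 to 100, 0.65 in 8184 peaks of 100 to 200 and 0.71 in the 3923 above (Spearman's rho 0.12, 0.42, 0.64 and 0.67). These are correlations over peaks, which share their libraries. They depended on the H3K18cr replicate. In the 3923 tall peaks r was 0.77 with replicates 1 and 2 on both sides and 0.35 with replicate 3 on both sides. With replicates 1 and 2 under 1 treatment and replicate 3 under the other it was 0.13 and 0.054 in these peaks. H3K18cr libraries of the same number also deviated together from their group means between the treatments (r = 0.50, 0.39 and 0.66 for replicates 1, 2 and 3), so the DMSO libraries are not a fully separate repeat. For H3K18ac these values were -0.47, 0.25 and -0.35.

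Taking both treatments together gave a list of unequal peaks, most of them promoters with more acetylation. This fit, added after the data were seen, used TMM scaling and averaged the MS275 and DMSO libraries of 1 mark and number, which leaves 3 values for each mark. Since H3K18ac libraries 1 and 3 deviated in opposite directions in the 2 treatments, averaging narrows the H3K18ac spread that the fit sees, and its effect on the calls was not tested. It called 54 peaks with H3K18cr higher (0.134% of 40266) and 287 with H3K18ac higher (0.713%). Of the 287, 280 were promoters (97.6%, against 31.9% of all peaks), and of the 54, 33 were promoters (61.1%). With TMM over the 12 libraries taken singly, 336 (0.834%) and 1165 (2.89%) were called. With the deposited scaling 0 passed (limma; 4216 at an unadjusted p under 0.05). SMAD7, the inhibitory SMAD of TGF-beta signalling, had a difference of 0.70 ± 0.12 (SE; limma adjusted p = 0.0232). With MS275 it held 386, 333 and 295 reads for H3K18cr against 299.9, 191 and 158 for H3K18ac, so that its lowest H3K18cr library fell just under its highest H3K18ac library. ZNF423, ANGPT4, FIBCD1, GADD45G, HRH1 and HAS3 were on the same side, with differences of 0.58 to 0.78. On the other side were ALG2, an enzyme of protein N-glycosylation, with -0.76 ± 0.13, then ELP4, SMU1, TBCA, NSUN3 and POLR3E, which serve tRNA modification, splicing, tubulin folding, RNA methylation and RNA polymerase III. ALG2 held 97.9, 80.7 and 135 H3K18cr reads and 173, 129 and 154 H3K18ac reads with MS275. These genes were chosen by this same fit, so their function is described and not tested.

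Position separated the peaks by small amounts. The median log2 difference with MS275 was 0.0030 at the 12795 promoter peaks (within 1 kb of a protein-coding start site), 0.062 inside genes, 0.064 between genes and 0.072 at start sites of other gene types. The quartiles of each class, -0.15 and 0.15 at promoters, were far wider than these shifts. The promoter median ran from -0.065 to 0.12 when single libraries were left out. The median of all peaks stood 0.042 above that of promoters with all libraries, and 0.0057 above it without H3K18ac replicate 1. The marks did not overlap with H3K18cr higher in 3.65% of promoter peaks and in 6.33% of peaks inside genes, and with H3K18ac higher in 3.94% and 2.93%. With DMSO the medians were -0.059 at promoters and 0.056, 0.092 and 0.079 in the other classes.

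The share of reads in promoter peaks was 43.6%, 43.3% and 43.6% in H3K18cr and 45.7%, 43.2% and 44.1% in H3K18ac. The means, 43.5% ± 0.167 and 44.3% ± 1.27 (SD, n = 3 each), differed by less than the spread of H3K18ac (exact permutation test, two-sided, p = 0.4, smallest possible 0.1). Intergenic peaks took 14.7% ± 0.149 of H3K18cr and 14.4% ± 0.313 of H3K18ac reads (n = 3 each; exact permutation p = 0.3). With DMSO the promoter share was 49.2% ± 0.597 for H3K18cr and 51.8% ± 1.93 for H3K18ac, without overlap (n = 3 each; exact permutation p = 0.1, the smallest possible). H3K18ac replicate 1 had the highest promoter share with MS275.

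Promoters of more highly expressed genes leaned to acetylation. RNA values were found for 12008 of the 12795 promoter peaks (93.8%) and split into 4 equal groups by counts per kb of gene span, which includes introns. The median difference was 0.049, 0.0057, -0.016 and -0.025 from the lowest to the highest group with MS275, and 0.051, -0.045, -0.098 and -0.13 with DMSO. In the highest group 45.6% of peaks had more H3K18cr, and the libraries of the marks overlapped with MS275, with a median level above all peaks of 1.09 in H3K18cr replicate 3 and 1.08 in H3K18ac replicate 2 on the log2 scale. Peak width moved with expression, from a median of 2100 bases in the lowest group to 3000 in the highest, as did the log2 ratio of ChIP to input, from 1.06 to 1.26. With all peaks split into 5 bins by the ChIP to input ratio, the promoter peaks of the top bin had a median difference of -0.029 with MS275 and -0.13 with DMSO, against 0.029 and 0.014 in the bottom bin. By GC content the lowest promoter median was in the middle bin (-0.070, between 46.0% and 50.7% GC) and the highest in the top bin (0.055). The part of height and base composition in the trend with expression was not tested.

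**Figure D4:**
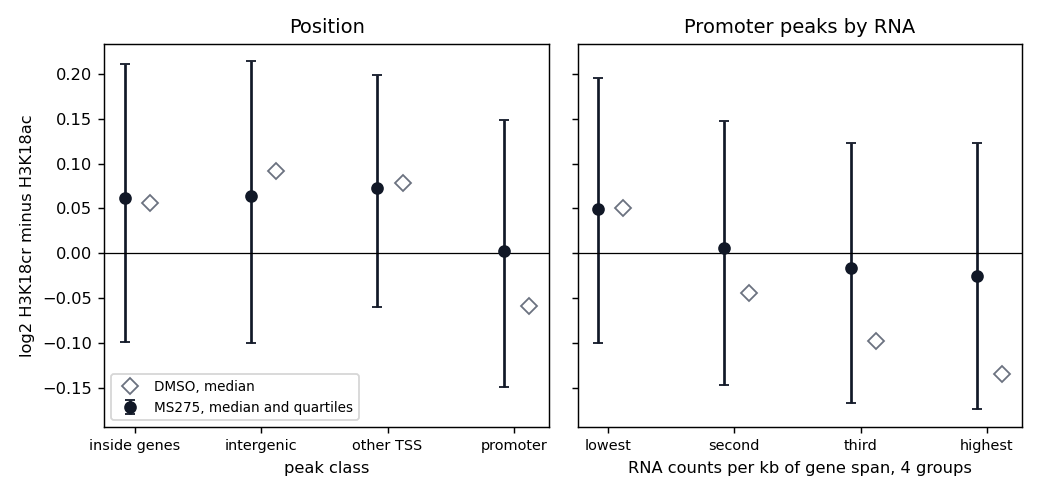
Median log2 difference (H3K18cr minus H3K18ac) of peaks by position and of promoter peaks in 4 groups of RNA counts per kb of gene span, with quartiles as bars for MS275 and open diamonds for DMSO medians. Promoters lie below the other classes, and the median falls from 0.049 to -0.025 with expression under MS275 and further under DMSO. With MS275 the gap of all peaks over promoters was 0.042 with all libraries and 0.0057 without H3K18ac replicate 1.

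Chromosome X leaned most to acetylation. Its 785 tested peaks had a median of -0.017 with MS275 and -0.071 with DMSO, and its 410 promoters -0.099 and -0.18. The other chromosomes had medians between 0.022 (chromosome 19) and 0.080 (chromosome 22). On chromosome 19 the 118 promoters of zinc finger genes had a median of -0.10, with 80 on the H3K18ac side, against -0.017 for the 823 other promoters. Zinc finger promoters on other chromosomes had -0.058 (226 peaks). These sets were formed after the chromosome values were seen.

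Over windows of 1 Mb the reads of the marks were closer still, again without subtraction of input. Of 2168 windows 0 passed (limma; 0% called, 12 at an unadjusted p under 0.05, smallest adjusted p 1.00), and the differences ran from -0.48 to 0.41. The 95% interval lay inside a 2-fold change in all 2168. The window with the smallest p was chr5:137000001-138000000, with 3 peaks and the HNRNPA0 promoter, an RNA-binding protein gene. It held 174, 173 and 194 scaled reads of H3K18cr and 264, 261 and 221 of H3K18ac (-0.46 ± 0.17, SE). The next on the H3K18ac side held GNPDA2 with YIPF7, ZRANB2, YTHDC1, and 1 window on chromosome 8 with no protein-coding promoter peak. On the H3K18cr side the first were windows with KLF12 (141, 149 and 138 against 138, 94.0 and 94.3, from 1 peak) and UPP1 (509.5, 528 and 567 against 525, 436 and 345), then TSHZ1 and 2 windows on chromosomes 10 and 14 with no protein-coding promoter peak. In both KLF12 and UPP1 the H3K18ac replicate 1 value lay beside the H3K18cr values. Without that library 150 windows passed, all with H3K18cr higher.

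Ribosomal protein genes leaned to acetylation in every library. Of 83 promoter peaks of the 78 cytosolic ribosomal protein genes, 0 passed with MS275 (0% of all peaks), 71 had more H3K18ac and 12 more H3K18cr, and the median log2 difference was -0.15, against 0.0030 over all promoters. Relative to all promoters of the same library, the median deviation of the list was -0.069, -0.098 and -0.082 in the H3K18cr libraries and 0.0998, 0.074 and 0.056 in the H3K18ac libraries, with no overlap. The shift was -0.15 relative to all promoters, and close to this with H3K18cr replicates 1 and 2 (-0.16) and with replicate 3 alone (-0.15). Without H3K18ac replicate 1 the median of the list was -0.037 and that of all promoters 0.12. The shift ran from -0.18 to -0.14 when single libraries were left out. With DMSO 82 of the 83 were on the H3K18ac side (median -0.32), against 7404 of 12795 over all promoters (median -0.059). RPSA, a protein of the small subunit, held 103, 99.1 and 109 H3K18cr reads and 182, 120 and 127 H3K18ac reads, and RPL37 of the large subunit 134, 122 and 122 against 201, 148 and 156. In these 2 the marks did not overlap. RPS2, at the other end, had 146, 144 and 149 against 155, 95.7 and 104, in a peak shared with NDUFB10. In the fit of both treatments 8 of the 83 peaks were called with H3K18ac higher, against 0.713% of all peaks and 2.18% of promoter peaks (FAU, RPL35A, RPL6, RPS6, RPL4, RPS9, RPL21 and RPL9) and 0 with H3K18cr higher.

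Genes of DNA replication were mostly on the same side. Of 49 promoter peaks of S-phase genes 0 passed, 30 had more H3K18ac, and the median was -0.13 (DMSO: -0.24, 46 of 49). Over all promoters 6334 of 12795 peaks were on that side with MS275 and 7404 with DMSO. FEN1 was lowest (-0.62, the peak shared with TMEM258) and CDC6, with 7.3 to 19.5 reads per library, highest (0.34 ± 0.41). With DMSO the H3K18cr libraries (-0.12, -0.11 and -0.058) lay below the H3K18ac libraries (0.019, 0.080 and 0.26). With MS275 they overlapped (H3K18ac replicate 1 at 0.18, H3K18ac replicates 2 and 3 at -0.032 and -0.0083, H3K18cr from -0.073 to 0.029). Without H3K18ac replicate 1 the median was 0.095, and its shift relative to all promoters went from -0.13 to -0.029. The shift was -0.084 and -0.054 without H3K18cr replicates 2 and 3.

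Genes of mitosis leaned to crotonylation, mainly through H3K18cr replicates 1 and 2. Of 44 promoter peaks 0 passed, 35 had more H3K18cr and the median was 0.19. The deviations were 0.13, 0.11 and -0.036 in the H3K18cr libraries and -0.013, -0.036 and -0.18 in the H3K18ac libraries. With H3K18cr replicates 1 and 2 the list stood 0.22 above all promoters, and with replicate 3 alone 0.024. KIF4A, a chromokinesin, was highest, with 32.6, 21.2 and 23.8 reads against 19.5, 11.5 and 10.5, in a peak it shares with PDZD11 (0.94 ± 0.34). CCNB1, the mitotic cyclin, had 117, 133 and 118 against 105, 70.9 and 74.4. CDC25C, the phosphatase that activates CDK1, was lowest (-0.21), in a peak shared with FAM53C. It was the only peak of the list called in the fit of both treatments, with H3K18ac higher (-0.48, limma adjusted p = 0.0303), against 0.713% of all peaks and 2.18% of promoter peaks. Of the 44 promoters of this list in RefSeq, 32 held CCAAT (72.7%, against 34.3% of promoters in peaks) and 27 held TTTGAA, the core of the cell cycle homology region (61.4% against 8.77%), which are known marks of this gene class.

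Wnt targets and feedback genes also leaned to crotonylation. HCT116 cells carry an activated beta-catenin. Of 21 promoter peaks 0 passed, 19 had more H3K18cr and the median was 0.18 (DMSO 0.17). Without H3K18ac replicate 1 the median was 0.32 and without H3K18ac replicate 3 it was 0.083. The shift against all promoters ran from 0.13 to 0.21 when single libraries were left out. The H3K18cr deviations, 0.13, 0.11 and 0.026, lay above those of H3K18ac, -0.094, -0.034 and -0.10. Relative to all promoters the list stood at 0.21 with H3K18cr replicates 1 and 2 and at 0.096 with replicate 3. AXIN2, a scaffold that limits beta-catenin, had 761, 745 and 721 H3K18cr reads against 724, 528 and 550.2 H3K18ac reads, with H3K18ac replicate 1 inside the H3K18cr range. TCF7, a partner of beta-catenin, was highest (0.37) and NKD1, a feedback inhibitor, lowest (-0.12). HOX genes (26 peaks, median 0.19; HOXA3 0.46, HOXD3 -0.57) and neuronal genes (19 peaks, 0.16; STX1A 0.46, MAP2 -0.26) were mostly on the H3K18cr side with overlapping libraries. Relative to all promoters HOX genes stood at 0.21 with H3K18cr replicates 1 and 2 and at 0.061 with replicate 3, and neuronal genes at 0.17 and 0.044. Without H3K18ac replicate 2 the HOX median was 0.021 and its shift 0.086 (0.19 with all libraries), without H3K18ac replicate 3 they were 0.042 and 0.098, and without H3K18ac replicate 1 the neuronal shift was 0.085 (0.16 with all). For intestinal epithelial genes, 26 of 30 peaks were on the H3K18cr side with a median of 0.084, from -0.21 at TJP1, a tight junction protein, to 0.34 at KRT20, the keratin of differentiated enterocytes. Their H3K18cr libraries (0.0054, 0.033 and 0.049) lay above their H3K18ac libraries (-0.091, -0.026 and -0.091). Relative to all promoters the shift was 0.081 for the intestinal list and 0.077 for the blood, stroma and endothelium genes, with 7 of 7 peaks on the H3K18cr side and overlapping libraries. The difference between these lists was not tested.

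Immediate early genes showed what the third H3K18cr library changed. The median over 31 promoter peaks was 0.0011 with all libraries and 0 passed. Relative to all promoters it was -0.12 with H3K18cr replicates 1 and 2, and 0.24 with replicate 3. With TMM and without replicate 3, 7 of the 31 peaks were called with H3K18ac higher, against 3.02% of promoter peaks. In the taller of its 2 peaks NR4A1, an orphan nuclear receptor, held 913, 908 and 1699 reads in H3K18cr replicates 1 to 3 against 1371, 1222 and 1235 in H3K18ac. EGR1, a zinc finger activator, held 206, 220 and 368 against 326, 280 and 313, the lowest difference of the list (-0.26), and CCN2, a matricellular protein, had the highest (0.27). In NR4A1 and EGR1 the H3K18cr libraries lay on both sides of all H3K18ac libraries.

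**Figure D5:**
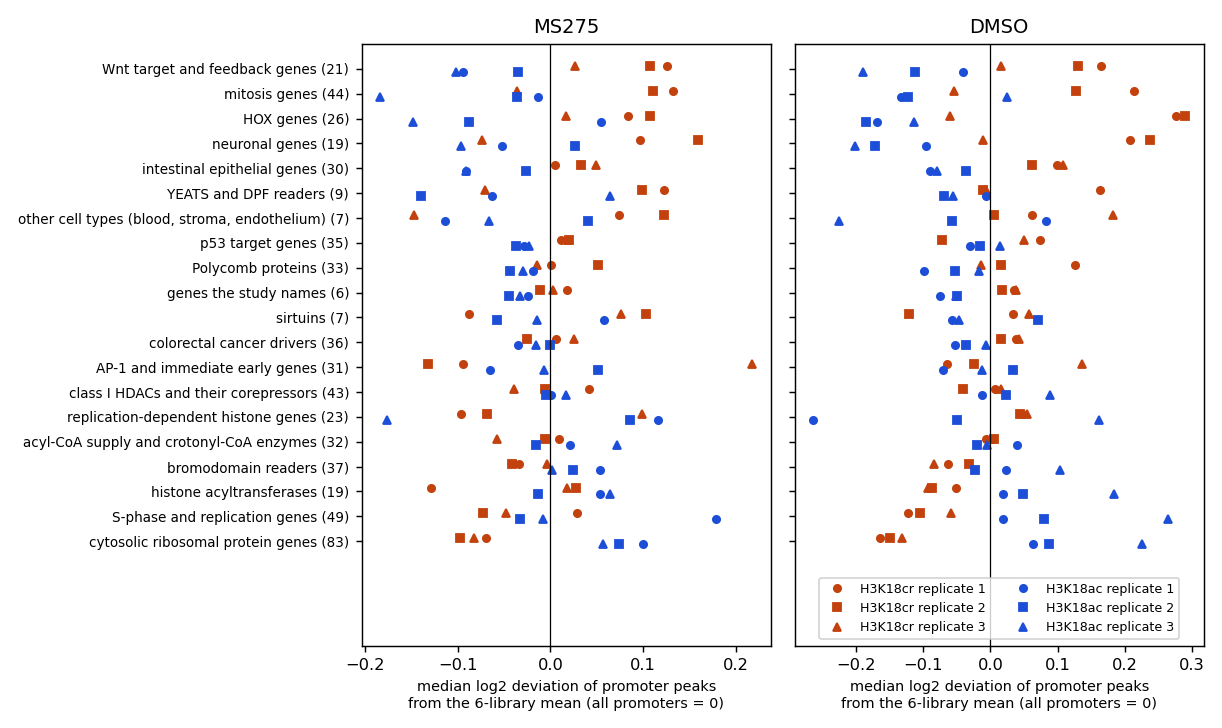
Median log2 deviation of the promoter peaks of 20 gene lists (number of peaks in brackets) in each library from the mean of the 6 libraries of a treatment, less the same median over all promoter peaks. Ribosomal protein genes lie with all H3K18cr libraries below all H3K18ac libraries under both treatments, while immediate early genes and mitosis genes have H3K18cr replicate 3 (triangles) apart from replicates 1 and 2.

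The enzymes that write, read and remove these marks had no peak that passed with MS275. In the fit of both treatments HAT1, RBBP4 and BRD2, 1 peak each of the acyltransferases, the class I HDACs with corepressors and the bromodomain readers, were called with H3K18ac higher (limma adjusted p = 0.0362, 0.0449 and 0.0264), in a fit that called 2.18% of promoter peaks in this direction. With TMM and without H3K18cr replicate 3, 3 of 19, 2 of 43 and 1 of 37 peaks of these lists were called with H3K18ac higher, against 3.02% of promoter peaks in that fit. Among 19 promoter peaks of acyltransferases the median was -0.032, from -0.45 at GTF3C4, a TFIIIC subunit, to 0.41 at KAT2B (PCAF). CREBBP held 148, 161 and 198 H3K18cr reads against 238, 188 and 205 H3K18ac reads. Among 43 peaks of class I HDACs and their corepressors the median was -0.022. HDAC2 was lowest, with 118, 118 and 147 reads against 217, 139 and 167 (-0.43 ± 0.19), and MBD3, in a peak of 750 bases whose H3K18ac replicate 2 held only 3.3 scaled reads, was highest (0.90 ± 0.35). The taller MBD3 promoter peak, of 3900 bases and 215 reads on average, was on the H3K18ac side (-0.12). HDAC1 had 133, 116 and 128 against 142, 122 and 105, and HDAC3 181, 180 and 160 against 191, 139 and 130. The marks overlapped in all 3 HDAC genes. Bromodomain readers had 24 of 37 peaks on the H3K18ac side (median -0.082), with BRWD3 at -0.44 and BRD8 at 0.32, and their H3K18cr libraries lay below their H3K18ac libraries with both treatments. The size of this shift rested on single libraries. Against all promoters it was -0.084 with all libraries, -0.037 without H3K18ac replicate 3, -0.0083 without H3K18cr replicate 2 (median 0.024) and -0.12 without H3K18cr replicate 3 (median -0.16). YEATS and DPF readers had 5 of 9 on the H3K18cr side (0.069), with MLLT1 (ENL) at -0.57 and DPF1 at 0.57, and a median of -0.031 with DMSO. For the genes of acyl-CoA supply the median was 0.023 (32 peaks), from PDHA1 of the pyruvate dehydrogenase complex (-0.75 ± 0.33) to ACADL, a long-chain acyl-CoA dehydrogenase (0.29 ± 0.46), both in peaks under 50 reads. Sirtuins ran from SIRT3 (-0.32) to SIRT7 (0.45). The direction of 5 of these lists relative to all promoters turned between the H3K18cr libraries. With replicates 1 and 2 and with replicate 3 the median was -0.064 and 0.029 for the acyltransferases, 0.0094 and -0.023 for the class I HDACs with corepressors and 0.15 and -0.051 for the YEATS and DPF readers. It was 0.042 and -0.061 for acyl-CoA supply and -0.044 and 0.13 for the sirtuins.

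In the remaining lists 0 peaks passed with MS275. CDKN1A, the p53 target that encodes the cell cycle inhibitor p21, had 262, 255 and 285 H3K18cr reads against 289.5, 239 and 235 H3K18ac reads (0.076 ± 0.18). BBC3 (PUMA) had 487, 482 and 558 against 575, 417 and 444, and CLDN7, a claudin, 378, 343 and 506 against 505, 305 and 375. The marks overlapped at all of these, and ADAD1 had no promoter peak in the table. For 35 peaks of p53 targets the median was 0.051, from XPC (-0.47) to SESN2 (0.41), and the H3K18cr libraries lay above the H3K18ac libraries. The median was 0.17 without H3K18ac replicate 1 and -0.018 without H3K18ac replicate 2. The shift against all promoters ran from 0.047 to 0.066 when single libraries were left out. With DMSO the libraries overlapped and the median was -0.043, with 21 of 35 peaks on the H3K18ac side. Over all promoters the DMSO median was -0.059, with 7404 of 12795 peaks on that side. Polycomb genes (33 peaks, 0.079) ran from SUZ12 (-0.65 ± 0.39, a peak with 8.5 to 24.7 scaled reads) to BMI1 (0.40), also without overlap of the library medians. Their shift against all promoters was 0.076 with all libraries, 0.022 and 0.046 without H3K18cr replicates 1 and 2, and 0.030 without H3K18ac replicate 3. Replication-dependent histone genes (23 peaks, -0.017) ran from H1-4 (-0.21) to H3C6 (0.14), and colorectal cancer drivers (36 peaks, 0.025) reached 0.37 at BAX. The histone gene median was -0.12 with H3K18cr replicates 1 and 2 and 0.20 with replicate 3, and between -0.14 and 0.14 when single libraries were left out. Against all promoters it was -0.085 and 0.11, and that of the colorectal cancer drivers -0.028 and 0.056. The Polycomb genes stood at 0.063 and -0.0049 in the same order. Of the blood, stroma and endothelium genes only 7 promoter peaks were in the table, between 0.036 at ACTA2 and 0.24 at CD68, with a median of 0.080 and overlapping libraries. Against all promoters they stood at 0.13 with H3K18cr replicates 1 and 2 and at -0.097 with replicate 3.

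Promoter sequence moved with the balance by small amounts. RefSeq promoter windows of 300 bases overlapped 9555 of the promoter peaks in 15365 cases, with a median difference of -0.020. Windows with the CRE TGACGTCA, which binds CREB and ATF proteins, had a median of -0.15 (468 windows, 3.05%, against 1.85% of all 35116 RefSeq promoters). Those with the YY1 motif, in the form shown for GOSR1, had -0.14 (280 windows, 1.82%, against 0.849%) and those with the ETS motif CCGGAAG -0.088 (2761, 18.0%, against 10.3%). Windows with the AP-1 motif TGANTCA had a median of 0.033 (708, 4.61%, against 7.71%) and those with TATAAA 0.0074 (755, 4.91%, against 11.5%). Both signs rested on the scaling, with -0.0061 and -0.032 under TMM, and with DMSO the medians were -0.026 and -0.042. Windows without the motif were lower on each of these scales (AP-1 -0.023, and -0.062 under TMM, TATAAA -0.021 and -0.061). GC content was close in windows with and without the YY1 (65.7% and 66.3%), CRE (65.7% and 66.3%) and ETS motif (65.3% and 66.7%), and lower with AP-1 (60.0% and 66.7%) and TATAAA (55.7% and 66.7%). By library, the peaks with the YY1 motif deviated by -0.056, -0.077 and -0.040 in H3K18cr and by 0.074, 0.042 and 0.065 in H3K18ac, without overlap. Peaks with the CRE deviated by -0.16, -0.13 and 0.073 in H3K18cr and by 0.047, 0.066 and 0.078 in H3K18ac, so that the shift lay in H3K18cr replicates 1 and 2. TGACGTCA reads the same on both strands, and both strands were searched for every motif. A match describes the letters of the window and is not a measured binding site.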

How the data were processed

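H3K18cr and H3K18ac ChIP-seq of HCT116 cells was analysed from the deposited peak table. Per the study's methods, the authors trimmed reads with Trim Galore, mapped them to GRCh38 with Bowtie2 (the submitters' notes list 2.2.5), removed duplicates and analysed ChIP-seq in SEQMONK. The HCT116 table holds 1 list, named as MACS peaks. The methods describe the MACS finder for colon H3K4me3, and how the HCT116 list was called, and from which libraries, is not given in the sources used here. The deposited log2 values are reads per peak scaled by 1 factor per library to the largest library, with 0.9 read for an empty peak. All values came back as whole reads within 0.02 read. A total over peaks is not the depth of a library. The HCT116 RNA table holds raw counts per gene, which the authors deposited without normalization, and these were used only for markers and expression groups (35608533 to 41901925 counts per MS275 library).

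Each mark contrast was fitted with limma 3.58.1 (trend) on the deposited log2 values of the 6 libraries, for peaks with a mean of at least 10 scaled reads, with Benjamini-Hochberg adjustment over all peaks. edgeR 4.0.16 and DESeq2 1.42.0 on the recovered reads were alternatives. Windows of 1 Mb with at least 100 reads used log2 of the sum plus 1. Peaks were annotated with GENCODE 44. Tested on simulated counts of these peaks, limma recovered 95 of 100 peaks changed 2-fold and 100 of 100 changed 4-fold, with 9 false calls. The changed peaks were drawn only from those averaging 50 or more reads, and each library was simulated independently. Recovery in lower peaks, or with deviations of whole libraries such as those seen here, was not tested.

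Named peaks were the promoter peaks of HDAC1, HDAC2, HDAC3, ADAD1, CLDN7, BBC3 and CDKN1A, up to 12 peaks per direction by smallest p with at least 50 reads and no overlap, the extremes of each gene list, and 5 windows per direction. Other named genes were chosen after their values were seen. A named peak of the colorectal cancer list is not reported here. The members and lists were chosen with earlier results of these data known, as were the motifs. Nothing in the labels says that replicates came from separate cultures, so p-values measure only the spread between these libraries. The methods name 2 replicates for HCT116 H3K18cr, while the study's figure of both marks at start sites gives n = 3, and 3 are analysed here. Columns left out numbered 0.

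Same-numbered H3K18cr and H3K18ac libraries did not deviate together (r = 0.0105, -0.009 and -0.0229), so the number was no block in the test.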

Additional observations from a re-analysis of the deposited data

How the results depend on the processing

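The count of peaks called between the marks with MS275 (0) became 1 with TMM, cyclic loess and DESeq2, 5 with edgeR and TMM, and 6 with TMM and a replicate block. Leaving out single libraries gave 0 to 29, with 29 without H3K18ac replicate 1 and 1 without H3K18cr replicate 3. Chosen after seeing the data, TMM without H3K18cr replicate 3 gave 758. With DMSO, TMM gave 63, and leaving out single libraries gave 0 to 18, with 18 without H3K18cr replicate 3. For 1 Mb windows the range was 0 to 150, with 150 without H3K18ac replicate 1. Over both treatments, also added after seeing the data, the count was 0 as deposited, 1501 with TMM, 5133 with TMM without H3K18cr replicate 3, and 341 with same-numbered libraries averaged. The cause was not tested. Replicate numbers did not pair the marks, and the replicate block alone left 0 peaks, 0 windows and a promoter share difference of -0.811 percentage points.

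Of 1595 values of the 66 named peaks under alternatives, 1562 kept their direction and 33 reversed, in 11 peaks, most of them near 0. CLDN7 was -0.013 with cyclic loess, -0.021 with loess on the tall peaks and -0.11 with TMM without H3K18cr replicate 3. HDAC1 was -0.00807 with median centring and -0.00922 with TMM and H3K18cr libraries 1 and 2 averaged. ACTA2 was -0.0037 with TMM and with the replicate block and TMM, -0.013 with median centring, -0.011 with loess, -0.0053 with DESeq2 and -0.029 with TMM without H3K18cr replicate 3, where H3C6 was -0.00138. With libraries left out, the log2 difference ran from -0.026 to 0.19 at CDKN1A, -0.017 to 0.27 at BBC3, -0.13 to 0.30 at CLDN7, -0.082 to 0.15 at HDAC1, -0.074 to 1.48 at MBD3, -1.20 to 0.025 at PDHA1, -0.55 to 0.075 at TJP1, -0.090 to 0.16 at ACTA2, -0.027 to 0.70 at CDC6, -0.24 to 0.0057 at NKD1 and -0.17 to 0.45 at H3C6. Counting error limits peaks under 50 reads.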
